A study of Mus musculus with 4 samples.

Results

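Solute carriers are the membrane proteins that move amino acids, sugars, nucleotides, vitamins, metals and other small molecules across the plasma membrane and the membranes of organelles. The genes described here are the rows of the authors' deposited table whose symbol begins with Slc and a family number, leaving out Slc2a1 and Slc2a3. The rule took 203 of the 11883 genes of the table, in 43 families, of which 10 hold 1 gene, and the families were grouped into 9 classes by what they carry. Slc49a4 was put in no class. Each family was placed whole, so a class can hold members that do not carry what it is named for. Among the 203 are 5 symbols that are named after a carrier and are not carriers: Slc4a1ap, an adaptor protein, the scaffold proteins Slc9a3r1 and Slc9a3r2, the pseudogene Slc2a4rg-ps, and Slc7a6os, a gene on the opposite strand of Slc7a6. These 5 were counted in the class of their family. The strand setting of the counting is not given in the sources used here. Reads from any stretch shared by Slc7a6 and Slc7a6os therefore cannot be told apart.

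RNA was sequenced from T helper 2 (Th2) cells of the lung, sorted as live cells positive for CD4 and T1/ST2, the receptor for interleukin-33. All mice were C57BL/6, carried Gata3(fl/fl), that is Gata3 flanked by sites for Cre recombinase, and had received papain, a protease that provokes allergic airway inflammation, on a chronic schedule. The Klrg1Cre group, Klrg1Cre Gata3(fl/fl), also carried a Cre recombinase named for Klrg1, and the control group was Gata3(fl/fl) without Cre. Each group had 2 samples, and the labels do not say whether these came from separate mice, so p-values measure only how these samples vary, and that variation may be technical.

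The file headers call the group means ILC2 deficient and WT, after group 2 innate lymphoid cells (ILC2). The second was taken to be the genotype without Cre, and the first the one with it, a link that the labels leave unstated. No group carried Klrg1Cre without floxed Gata3, so loss of Gata3 in Th2 cells, a lack of ILC2 and the Cre allele itself cannot be told apart. Levels are in CPM, counts scaled to the reads of a library. For Gata3 itself the authors' deposited table gives means of 293.9 CPM for Klrg1Cre and 221.4 CPM for control, with an unadjusted p of 0.0115 and an adjusted p of 0.551; a mean over the whole gene does not show the floxed stretch alone. In RNA of sorted cells, fewer cells of a type and less RNA per cell cannot be told apart either.

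T cells that become activated take up more amino acids, glucose and nutrients of other kinds, and several solute carriers are known as part of that change. Large neutral amino acids enter through pairs of a light chain from the Slc7 family and the heavy chain Slc3a2, also known as CD98, and glutamine enters through Slc1a5 and carriers of the Slc38 family. Carriers of the Slc25 family sit in the inner membrane of mitochondria, those of the Slc35 family bring nucleotide sugars into the Golgi and the endoplasmic reticulum, and the Slc39 and Slc30 families move zinc in opposite directions.

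The table has no column for a single sample, but many group means fit just 1 pair of whole read counts for 2 libraries. This gave library totals of 26019065 and 14564426 reads in Klrg1Cre and of 33379572 and 31961572 reads in control. Both group means could be split in this way for 5351 of 11883 genes (45.0%), among them 91 of the 203 solute carrier genes (44.8%), and values by library are given for these. Within a group they are named larger and smaller, since nothing ties them to a sample. A gene with 3 reads would have 0.115 and 0.206 CPM in the larger and smaller Klrg1Cre libraries, and 0.0899 and 0.0939 CPM in the larger and smaller control libraries. One ribosomal RNA gene, Rn45s, held 67.1% of the reads in Klrg1Cre and 51.4% in control, and all other listed genes held 18.2% and 17.8%. The remaining 14.7% in Klrg1Cre and 30.8% in control lay outside the listed genes. T cell markers were present in both groups: the deposited means of Cd3e were 76.6 CPM in Klrg1Cre and 73.0 CPM in control. Of 16 T cell markers, 13 were listed, 7 with the higher mean in Klrg1Cre and 6 with the lower. Of the 13, 3 were under an unadjusted p of 0.05 in the authors' deposited table (23.1%, against 7.09% of all genes). All 3 had the higher mean in Klrg1Cre. Klrg1, for which the Cre is named, had 1.38 and 7.003 CPM in the larger and smaller Klrg1Cre libraries (36 and 102 reads), against 42.0 and 54.9 CPM in the control libraries (1401 and 1754 reads), with an adjusted p of 0.0701 in the authors' deposited table.

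No solute carrier gene passed the authors' test. In the authors' deposited table, 0 of 203 had an adjusted p under 0.05, against 7 of 11883 genes (0.0589%), and the smallest adjusted p of a solute carrier was 0.321, for the amino acid carrier Slc7a8. At an unadjusted p under 0.05, the authors' deposited table held 23 solute carrier genes (11.3%), where 843 of all genes did so (7.09%). Of these 23, 14 had the higher mean in Klrg1Cre (6.90% of 203, against 3.72% of all genes) and 9 the lower mean (4.43%, against 3.37%). Genes with more reads made up most of this count: at 5 CPM or more on average, 15 of 100 solute carrier genes were under 0.05 (15.0%, against 8.40% of such genes in the table), with at least 1 CPM it was 21 of 155 (13.5%, against 7.70%), and below 1 CPM it was 2 of 48 (4.17%, against 4.24%). Of the 91 solute carrier genes that could be split into libraries, 9 were under 0.05. Among these, 4 had the higher mean in Klrg1Cre (4.40% of 91, against 3.83% of all split genes). The remaining 5 had the lower mean (5.49%, against 3.12%), so the lean towards higher means was not seen among split genes. The deposited mean was higher in Klrg1Cre for 117 of the 203 (57.6%), against 50.6% of all genes. The median log2 ratio of Klrg1Cre over control was 0.07, against 0.01 over all genes, and it was -0.03 without the larger Klrg1Cre library, among the members that could be split.

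**Figure D1:**
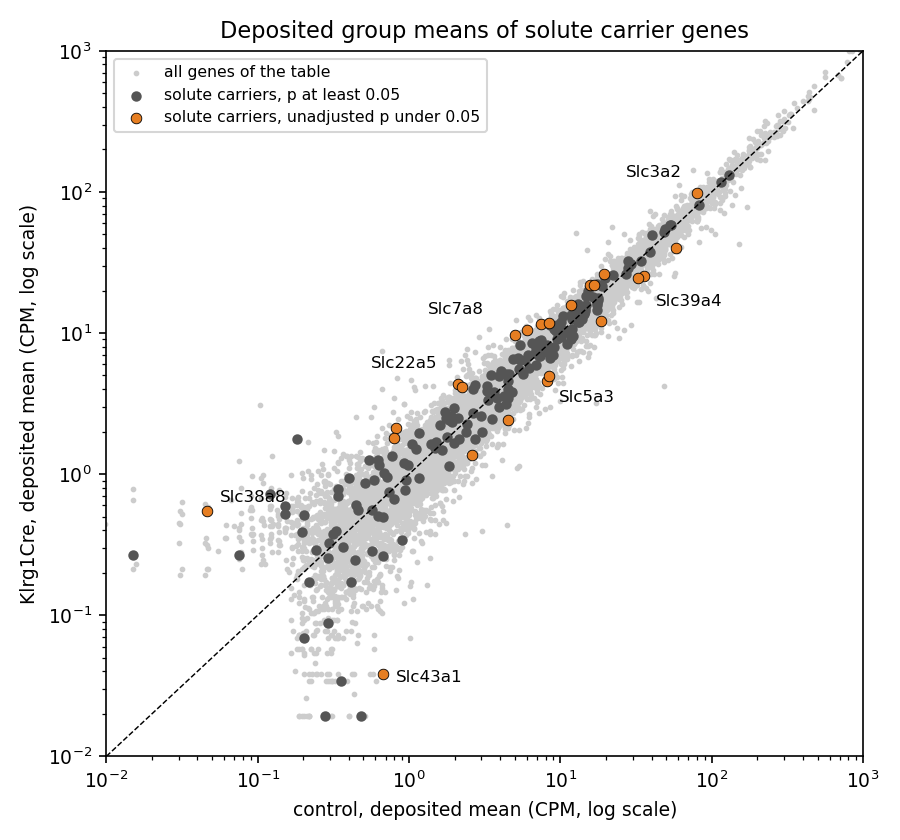
Deposited group means of the solute carrier genes and of all genes of the table, in CPM on log axes, with Klrg1Cre on the vertical axis and control on the horizontal axis; the dashed line marks equal means. Most of the solute carrier genes lie along the line, and the 23 genes with an unadjusted p under 0.05 (orange) lie on both sides of it, 14 above and 9 below; genes listed at 0 and the most abundant genes are outside the axes.

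Values by library were compared next. Of the 91 solute carrier genes that could be split, both Klrg1Cre libraries lay above both control libraries in 25 (27.5%, against 19.3% of all genes that could be split). Both lay below in 11 (12.1%, against 18.3%). Together 37.6% of all split genes had groups that did not overlap, and an exact permutation test of 2 against 2 libraries cannot go below p = 0.333. With a mean of at least 1 CPM the 25 became 16 of 65 (24.6%, against 19.9% of all split genes at that level), a narrower gap.

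Compared per kilobase of their longest protein-coding transcript, for the 201 genes with a known length, the highest levels belonged to mitochondrial and amino acid carriers. Slc25a5, which exchanges ADP and ATP across the inner mitochondrial membrane, had 95.4 CPM per kilobase in Klrg1Cre and 92.2 in control. The mitochondrial phosphate carrier Slc25a3 came next with 49.8 CPM per kilobase in Klrg1Cre and 51.3 in control. Slc1a5, which carries glutamine and other neutral amino acids, had 47.5 CPM per kilobase in Klrg1Cre and 47.3 in control, and Slc3a2 had 34.6 and 28.4. Thus the neighbours Slc25a3 and Slc1a5 differed by little in these group means, which carry no error of their own. The libraries overlapped between the genotypes for these carriers where they could be split: Slc25a5 had 111.9 and 124.8 CPM in the larger and smaller Klrg1Cre libraries, against 110.9 and 117.7 CPM in the larger and smaller control libraries. Slc1a5 had 125.0 and 137.6 CPM in the Klrg1Cre libraries, against 132.3 and 129.1 CPM in the control libraries, so the sign of its small difference depends on which library is used.

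The amino acid and peptide carriers held the largest number of members under an unadjusted p of 0.05. There were 7 of 38 (18.4%, against 7.09% of all genes) in the authors' deposited table, 6 with the higher mean in Klrg1Cre and 1 with the lower. The deposited mean was higher in Klrg1Cre for 26 of the 38, and the median log2 ratio of the class was 0.23. Of the 18 members that could be split, 7 had both Klrg1Cre libraries above both control libraries (38.9%, against 19.3% of all split genes) and 1 had both below (5.56%, against 18.3%). Among the 7, Slc38a8, Slc6a4 and Slc15a2 averaged 0.299, 0.420 and 0.518 CPM, so their places rest on few reads. Over the 18 split members the median was 0.28 with all 4 libraries. With 1 left out it ranged between 0.06 without the larger Klrg1Cre library and 0.47 without the smaller Klrg1Cre library.

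Slc7a8 (LAT2), a light chain that pairs with Slc3a2 and exchanges neutral amino acids, had the smallest p of all solute carrier genes. It had 10.7 and 8.58 CPM in the larger and smaller Klrg1Cre libraries, from 278 and 125 reads, against 5.27 and 4.76 CPM in the larger and smaller control libraries, from 176 and 152 reads. Both Klrg1Cre libraries were high and both control libraries low, with no overlap. The deposited means of 9.63 CPM for Klrg1Cre and 5.01 CPM for control gave a 1.92-fold ratio and an unadjusted p of 0.00257 in the authors' deposited table. On the log2(CPM + 1) scale, limma gave a difference of 0.82 with a standard error of 0.20 and a Benjamini-Hochberg adjusted p of 0.236. Its partner Slc3a2 had deposited means of 97.4 CPM for Klrg1Cre and 80.0 CPM for control (unadjusted p = 0.0471 in the authors' deposited table) and could not be split into libraries.

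The other light chains that pair with Slc3a2 did not all lie on one side. Slc7a5 (LAT1), the main carrier of large neutral amino acids in activated T cells, had 2.38 and 2.06 CPM in the larger and smaller Klrg1Cre libraries, against 1.29 and 1.91 CPM in the control libraries. These groups did not overlap, though the lower Klrg1Cre library lay close to the higher control library, and the p was 0.245 in the authors' deposited table. Slc7a11, which takes up cystine in exchange for glutamate, had deposited means of 4.26 CPM for Klrg1Cre and 2.73 CPM for control (unadjusted p = 0.0971 in the authors' deposited table). Slc7a6, which carries cationic and neutral amino acids, had the lower deposited mean in Klrg1Cre, 14.6 CPM against 17.4 CPM in control. Slc7a7, a close relative of Slc7a6, was under 1 CPM in both groups, 0.498 CPM in Klrg1Cre and 0.678 CPM in control. Per kilobase of transcript, Slc7a8 ranked 83rd of 201 and Slc7a5 132nd in the mean of both groups.

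Of the amino acid carriers that work without Slc3a2, 3 expressed at over 1 CPM had an unadjusted p under 0.05, all with the higher mean in Klrg1Cre. The whole class, with and without Slc3a2, held 24 members at 1 CPM or more. Of all genes at that level, 7.70% were under 0.05. Slc7a1 (CAT1), a carrier of arginine and lysine, had deposited means of 21.8 CPM for Klrg1Cre and 15.6 CPM for control (p = 0.0250 in the authors' deposited table). Slc38a2 (SNAT2), which takes up small neutral amino acids together with sodium, had 26.1 CPM in Klrg1Cre and 19.5 CPM in control (p = 0.0327 in the authors' deposited table). Neither could be split. Slc1a4 (ASCT1), an exchanger of serine, alanine and cysteine, had 2.96 and 5.36 CPM in the larger and smaller Klrg1Cre libraries, against 2.34 and 2.13 CPM in the larger and smaller control libraries. Its groups did not overlap, but the smaller Klrg1Cre library stood well above the larger one (p = 0.0471 in the authors' deposited table).

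The other 2 amino acid carriers under 0.05 rest on few reads. Slc38a8, a glutamine carrier, had 9 and 11 reads in the larger and smaller Klrg1Cre libraries, against 1 and 2 reads in the larger and smaller control libraries, so no fold is given. Slc43a1 (LAT3), a carrier of branched-chain amino acids, was the 1 member of the class with the lower mean: it had 2 and 0 reads in the Klrg1Cre libraries while control had a deposited mean of 0.676 CPM, where no library values could be recovered. Slc38a9, which senses arginine at the lysosome, was the class member that lay below control in both libraries, with 3.15 and 3.16 CPM in the larger and smaller Klrg1Cre libraries against 3.86 and 4.91 CPM in the control libraries (p = 0.139 in the authors' deposited table). Slc1a1, a glutamate carrier of this class, and Slc12a5, a potassium and chloride cotransporter of the ion class, were listed at 0 in Klrg1Cre and under 1 CPM in control, 0.250 and 0.271 CPM.

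**Figure D2:**
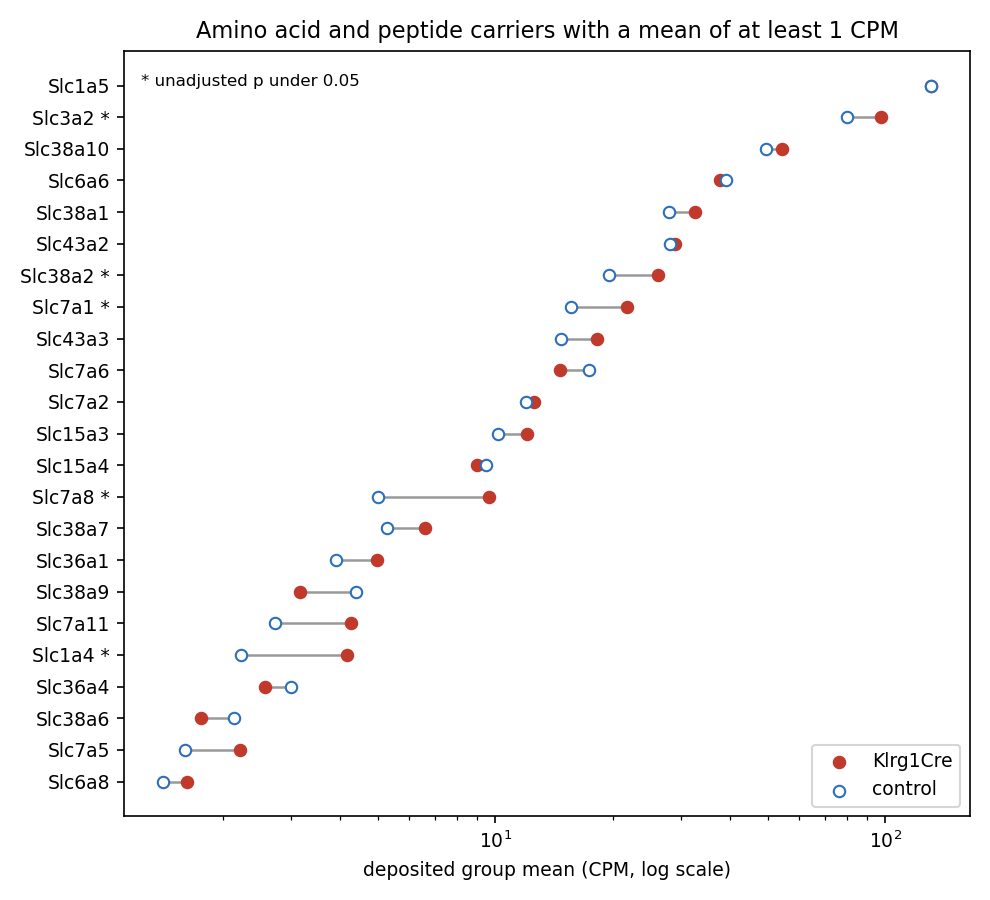
Deposited group means of the amino acid and peptide carriers with a mean of at least 1 CPM, in CPM on a log axis; filled red points are Klrg1Cre, open blue points are control, grey lines join the means of a gene, and an asterisk marks an unadjusted p under 0.05. The lines are longest for Slc7a8 and Slc1a4, where Klrg1Cre had 9.63 and 4.16 CPM against 5.01 and 2.23 CPM in control; means carry no error because the table holds none.

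Promoters are shown for Slc7a8 and Slc3a2, the light chain with the smallest p and its heavy chain, and for Slc7a11 and Slc1a4, which hold a letter pattern of the amino acid response. Of 27 amino acid and peptide carriers with a promoter, 3 hold it, against 1219 of all 27025 genes with a promoter (4.51%), a difference of few genes that was not tested. The other carrier, Slc7a7, is not printed, and its deposited mean was lower in Klrg1Cre (0.498 CPM against 0.678 CPM in control). They are RefSeq sequences of build GRCm38.p6, 5′ to 3′ on the minus strand on which each gene lies, from 250 bases before to 50 bases after the start of the gene. Capitals mark the letters TGATGNAA on either strand, the C/EBP-ATF response element (CARE) to which the stress-response factor ATF4 is known to bind with a partner. The windows are chr14:54781837-54782136 for Slc7a8, chr19:8713848-8714147 for Slc3a2, chr3:50443564-50443863 for Slc7a11 and chr11:20332664-20332963 for Slc1a4.
Slc7a8: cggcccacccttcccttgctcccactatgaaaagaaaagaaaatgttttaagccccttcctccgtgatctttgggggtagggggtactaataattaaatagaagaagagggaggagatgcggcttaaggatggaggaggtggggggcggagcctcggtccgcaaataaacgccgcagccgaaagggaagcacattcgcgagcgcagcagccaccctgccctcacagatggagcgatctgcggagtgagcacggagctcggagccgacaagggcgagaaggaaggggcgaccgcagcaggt
Slc3a2: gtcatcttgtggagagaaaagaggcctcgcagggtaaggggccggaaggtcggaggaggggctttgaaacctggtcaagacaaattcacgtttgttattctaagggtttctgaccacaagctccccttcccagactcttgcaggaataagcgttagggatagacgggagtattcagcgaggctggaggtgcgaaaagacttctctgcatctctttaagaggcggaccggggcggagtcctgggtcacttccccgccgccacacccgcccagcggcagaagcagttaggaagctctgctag
Slc7a11: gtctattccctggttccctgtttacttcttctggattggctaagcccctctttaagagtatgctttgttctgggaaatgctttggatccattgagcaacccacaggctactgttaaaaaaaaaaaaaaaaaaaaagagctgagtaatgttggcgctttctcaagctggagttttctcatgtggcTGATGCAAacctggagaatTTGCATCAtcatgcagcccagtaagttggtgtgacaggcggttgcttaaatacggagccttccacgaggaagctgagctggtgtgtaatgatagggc
Slc1a4: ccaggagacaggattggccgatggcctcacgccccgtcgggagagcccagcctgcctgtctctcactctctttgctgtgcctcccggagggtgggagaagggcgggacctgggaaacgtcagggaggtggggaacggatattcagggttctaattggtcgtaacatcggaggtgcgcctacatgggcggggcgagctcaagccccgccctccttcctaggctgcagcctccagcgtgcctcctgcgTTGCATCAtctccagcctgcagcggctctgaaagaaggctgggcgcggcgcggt
The Slc7a11 window holds 2 matches in opposite orientations, which begin at bases 185 and 204 of the window, and the Slc1a4 window holds 1, which begins at base 247. The windows of Slc7a8 and Slc3a2 hold 0, which says only that these letters are not there. The pattern was found in 8 of 210 promoters of solute carrier genes (3.81%) and in 1304 of all 32851 promoters (3.97%). Counted by gene, it was in 7 of 153 solute carrier genes with a promoter in the table (4.58%), against 4.51% of all genes. The share among solute carriers was therefore close to that among all promoters. A match is a description of the sequence and no measure of binding.

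The metal and haem carriers had 5 of 24 members (20.8%, against 7.09% of all genes) under an unadjusted p of 0.05 in the authors' deposited table, 2 with the higher mean in Klrg1Cre and 3 with the lower. The median log2 ratio of the class was 0.04. Of these 5, 4 belong to the Slc39 (ZIP) family, which brings zinc and other metals into the cytosol. They are 4 of its 11 listed members (36.4%, against 7.09% of all genes), and the 4 were divided evenly by direction.

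The intestinal zinc importer Slc39a4 had 26.4 and 23.9 CPM in the larger and smaller Klrg1Cre libraries, against 33.6 and 37.3 CPM in the larger and smaller control libraries. The groups did not overlap, with both Klrg1Cre libraries the lower (p = 0.00824 in the authors' deposited table), and limma gave a log2 difference of -0.48 with a standard error of 0.15 and an adjusted p of 0.399. Slc39a1, a zinc importer of the plasma membrane, had 28.8 and 20.5 CPM in the Klrg1Cre libraries, against 31.5 and 33.3 CPM in the control libraries (p = 0.0487 in the authors' deposited table). Here the larger Klrg1Cre library lay close to the control libraries and the smaller one well below.

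On the other side, Slc39a3, also a zinc importer, had deposited means of 11.5 CPM for Klrg1Cre and 7.46 CPM for control (p = 0.0178 in the authors' deposited table). Slc39a8, which carries zinc and manganese, had 2.12 CPM in Klrg1Cre and 0.820 CPM in control, the largest log2 ratio, 1.37, among named metal carriers with a mean of at least 1 CPM (p = 0.0203 in the authors' deposited table). The member of the family with the highest mean, Slc39a7, which releases zinc from the endoplasmic reticulum, had 51.7 CPM in Klrg1Cre and 48.3 CPM in control. Of the 5 zinc exporters of the Slc30 family, 0 were under 0.05, against 7.09% of all genes. With 5 genes, 0 cannot be told from that share. Mt1, a metallothionein that binds zinc, had 6.64 CPM in Klrg1Cre and 4.81 CPM in control (p = 0.0746 in the authors' deposited table).

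The magnesium transporter Slc41a1 had 9.22 and 15.0 CPM in the larger and smaller Klrg1Cre libraries, against 20.04 and 17.02 CPM in the larger and smaller control libraries. Both of the Klrg1Cre values lay below those of control, with the larger the lowest of the 4 and the smaller close to the smaller control library (p = 0.0234 in the authors' deposited table). All 3 members of the Slc41 family had the lower mean in Klrg1Cre, but Slc41a2 (0.666 CPM in Klrg1Cre, 0.798 CPM in control) and Slc41a3 (6.85 CPM in Klrg1Cre, 7.30 CPM in control) had p-values of 0.666 and 0.911 in the authors' deposited table. Without the smaller Klrg1Cre library, limma gave Slc41a1 a log2 difference of -0.93 and an adjusted p of 0.0246. That setting called 1 of 65 solute carrier genes (1.54%), near the share over all genes, 64 of 4242 (1.51%), and with all 4 libraries Slc41a1 was not called.

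Mitochondrial carriers of the Slc25 family made up 39 genes, of which 24 had the higher mean in Klrg1Cre. Under 0.05 in the authors' deposited table were 2 (5.13%, below the 7.09% of all genes), both with the lower mean. Of the 26 that could be split, both Klrg1Cre libraries lay above both control libraries in 9 (34.6%, against 19.3% of all split genes) and below in 2 (7.69%, against 18.3%). Among the 9, Slc25a35, Slc25a26, Slc25a23 and Slc25a16 averaged under 1 CPM (0.669, 0.946, 0.851 and 0.743), so their places rest on few reads. The deposited means of the 39 genes summed to 521.975 CPM in Klrg1Cre and 522.85 CPM in control. The median log2 ratio of the family was 0.09. Slc25a36, a carrier of pyrimidine nucleotides, had 1.42 and 1.30 CPM in the larger and smaller Klrg1Cre libraries, against 2.70 and 2.53 CPM in the larger and smaller control libraries. Its groups did not overlap and the libraries of each genotype lay close together (p = 0.0331 in the authors' deposited table).

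The members with the highest levels per kilobase, Slc25a5, Slc25a3 and Slc25a4, were not under 0.05. Slc25a4, also an ADP and ATP exchanger, had 59.99 and 56.51 CPM in the larger and smaller Klrg1Cre libraries, against 53.1 and 52.7 CPM in the control libraries (p = 0.302 in the authors' deposited table). The Klrg1Cre libraries were the higher without overlap, by a small margin. Slc25a3 had 75.7 and 84.7 CPM in the Klrg1Cre libraries, against 76.9 and 88.4 CPM in the control libraries, and these overlapped. Slc25a42, which brings coenzyme A into mitochondria, had deposited means of 1.35 CPM for Klrg1Cre and 0.773 CPM for control, among the largest ratios of the family at 1 CPM or more (p = 0.200 in the authors' deposited table).

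**Figure D3:**
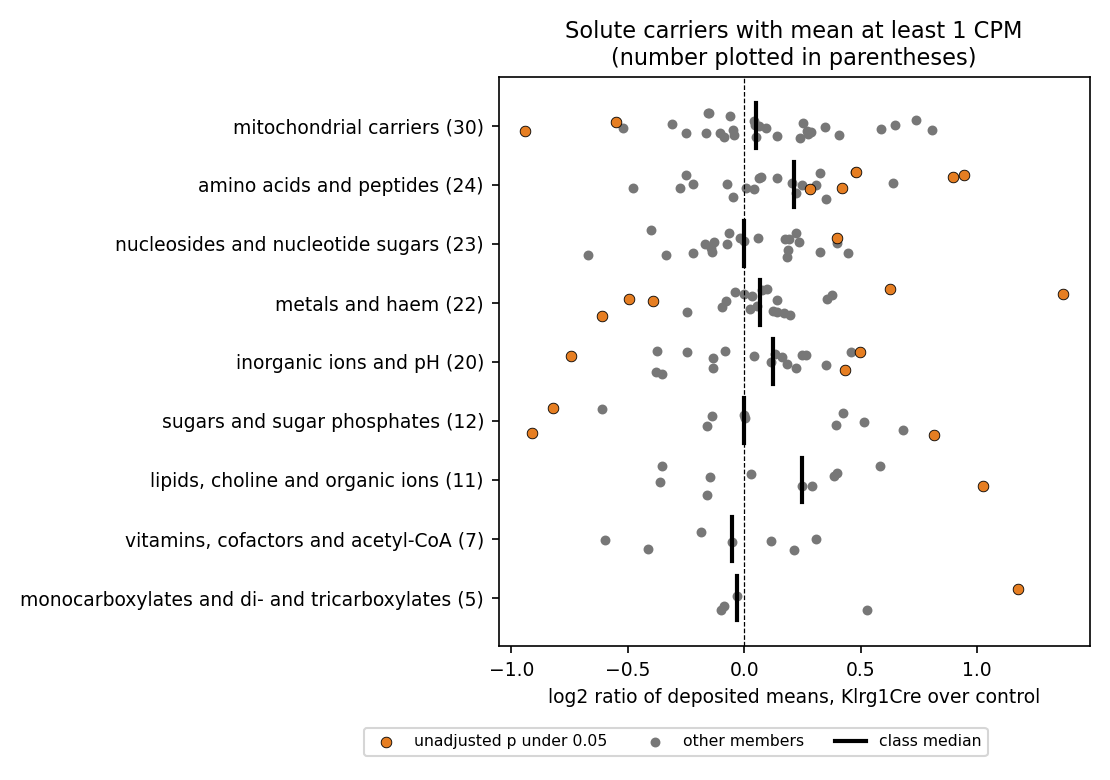
Log2 ratio of the deposited means, Klrg1Cre over control, of the solute carrier genes that averaged 1 CPM or more, by class; each point is a gene, the vertical spread within a row carries no meaning, black bars are medians of the points plotted, and orange points had an unadjusted p under 0.05. The orange points of the amino acid carriers lie right of 0 (higher in Klrg1Cre), both orange mitochondrial carriers lie left of it, and the metal carriers have orange points on both sides.

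The sugar and sugar phosphate carriers had 3 of 13 members under 0.05 (23.1%, against 7.09% of all genes) and a median log2 ratio of -0.0020. Slc5a3, which takes up myo-inositol and helps cells adjust to osmotic stress, had deposited means of 4.59 CPM for Klrg1Cre and 8.12 CPM for control (p = 0.0118 in the authors' deposited table). Slc45a4 had 2.40 CPM in Klrg1Cre and 4.52 CPM in control (p = 0.0277 in the authors' deposited table). Slc37a2, a sugar phosphate exchanger of the endoplasmic reticulum that is known to be abundant in macrophages, lay the other way, with 10.6 CPM in Klrg1Cre and 6.00 CPM in control (p = 0.0153 in the authors' deposited table). None of the 3 could be split. Slc50a1, a sugar carrier with the highest mean of the class, had 14.7 and 16.8 CPM in the larger and smaller Klrg1Cre libraries, against 15.8 and 18.8 CPM in the control libraries, which overlapped.

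Carriers of inorganic ions had 3 of 31 members under 0.05 (9.68%, against 7.09% of all genes). Slc26a2, a sulfate transporter, had 6.69 and 3.30 CPM in the larger and smaller Klrg1Cre libraries, against 8.54 and 8.17 CPM in the larger and smaller control libraries. The control libraries lay close together and both Klrg1Cre libraries were lower, the smaller one the lowest (p = 0.0306 in the authors' deposited table). Without the larger Klrg1Cre library, limma gave Slc26a2 a log2 difference of -1.12 and an adjusted p of 0.0237. That setting called 1 of 65 solute carrier genes (1.54%), near the share over all genes, 58 of 4242 (1.37%), and with all 4 libraries Slc26a2 was not called. Slc20a1, a phosphate carrier that also serves as a virus receptor, had deposited means of 15.8 CPM for Klrg1Cre and 11.7 CPM for control (p = 0.0301 in the authors' deposited table). Slc8b1, which exchanges sodium for calcium in mitochondria, had 11.8 CPM in Klrg1Cre and 8.35 CPM in control (p = 0.0347 in the authors' deposited table). In the same class Slc9a3r1, a scaffold and not a carrier, had the highest mean, 58.5 CPM in Klrg1Cre and 54.0 CPM in control.

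Slc22a5 (OCTN2) takes up carnitine, the molecule on which long fatty acids enter mitochondria. It was the 1 of 18 carriers of lipids, choline and organic ions under 0.05 (5.56%, against 7.09% of all genes). Its deposited means were 4.32 CPM in Klrg1Cre and 2.12 CPM in control (p = 0.0147 in the authors' deposited table). Slc25a20, which passes acylcarnitine across the inner mitochondrial membrane, had 8.69 and 9.06 CPM in the larger and smaller Klrg1Cre libraries, against 6.29 and 8.60 CPM in the control libraries (p = 0.265 in the authors' deposited table). Its groups did not overlap, but the higher control library came close to the Klrg1Cre libraries. Slc44a2, a choline transporter-like protein and the class member with the highest mean, had 49.1 CPM in Klrg1Cre and 40.1 CPM in control.

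Of the 6 Slc16 genes, which include the carriers of lactate and pyruvate, 1 was under 0.05 (16.7%, against 7.09% of all genes). Slc16a13 had 1.61 and 1.99 CPM in the larger and smaller Klrg1Cre libraries, against 0.749 and 0.845 CPM in the larger and smaller control libraries, without overlap (p = 0.0334 in the authors' deposited table). Slc16a1 (MCT1), which carries lactate and needs the partner protein Bsg to reach the membrane, had 4.42 and 5.63 CPM in the Klrg1Cre libraries, against 3.77 and 3.19 CPM in the control libraries. It did not overlap either (p = 0.0946 in the authors' deposited table). Slc16a3 (MCT4), the lactate exporter of glycolytic cells, differed little, with deposited means of 8.07 CPM for Klrg1Cre and 8.24 CPM for control, and Bsg had 66.1 CPM in Klrg1Cre and 65.3 CPM in control. The Slc16 member with the highest mean was Slc16a6, with 9.34 CPM in Klrg1Cre and 10.03 CPM in control.

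Among 25 carriers of nucleosides and nucleotide sugars, 1 was under 0.05 (4%, against 7.09% of all genes). This was Slc35c2, with deposited means of 21.8 CPM for Klrg1Cre and 16.6 CPM for control (p = 0.0438 in the authors' deposited table). The median log2 ratio of the class was -0.0022. Slc35a4, with the highest CPM of the class, had 32.5 CPM in Klrg1Cre and 34.1 CPM in control. Of the 8 carriers of vitamins, cofactors and acetyl-CoA, 0 were under 0.05, against 7.09% of all genes. The riboflavin carrier Slc52a2 had 14.5 and 19.8 CPM in the larger and smaller Klrg1Cre libraries, against 14.8 and 20.7 CPM in the control libraries, so the larger libraries of both genotypes were low and the smaller ones high.

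**Figure D4:**
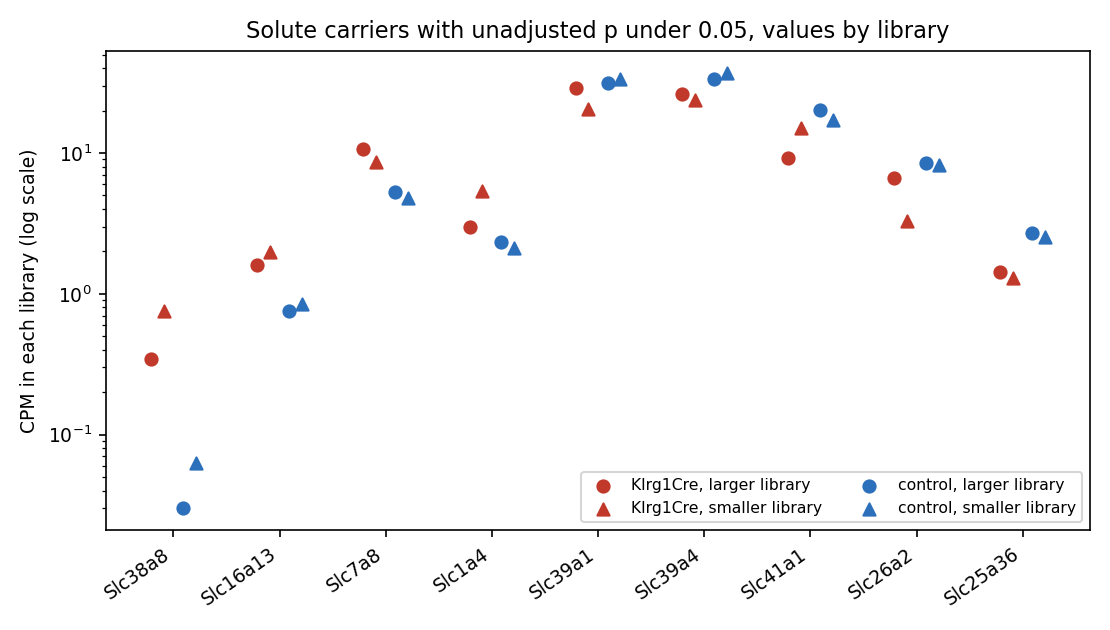
CPM in each library, on a log axis, of the 9 solute carrier genes with an unadjusted p under 0.05 whose means could be split into libraries; red is Klrg1Cre and blue control, circles are the larger and triangles the smaller library of a group. In each of the 9 genes the red points all lie on one side of the blue points, above them in the 4 genes at the left and below them in the 5 at the right. Slc38a8 rests on 9 and 11 reads in Klrg1Cre and on 1 and 2 in control.

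In limma on log2(CPM + 1) of the recovered libraries, 65 solute carrier genes averaging 1 CPM or more were fitted. By this test 0 had an adjusted p under 0.05, against 7 of the 4242 genes fitted (0.165%), and 8 had an unadjusted p under 0.05, 3 higher in Klrg1Cre and 5 lower, against 7.87% of those genes. The 3 higher were Slc7a8, Slc16a13 and Slc1a4. The 5 lower were Slc39a4, Slc41a1, Slc25a36, Slc26a2 and Slc39a1.

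Solute carriers that bear other symbols were counted in the same way. Of 62 on the list, 44 were in the table, 27 had the higher mean in Klrg1Cre (61.4%, against 50.6% of all genes), and 3 were under 0.05 in the authors' deposited table (6.82%, against 7.09%), all with the higher mean in Klrg1Cre. Their share under 0.05 was thus near that of all genes, and lower than the 11.3% of the 203. Their median log2 ratio was 0.07. The 3 were Mtch1, a protein of the outer mitochondrial membrane, with 11.2 CPM in Klrg1Cre and 7.12 CPM in control, Slco3a1, an organic anion carrier, with 9.52 CPM in Klrg1Cre and 6.54 CPM in control, and Mfsd13a, with 6.46 CPM in Klrg1Cre and 4.31 CPM in control. Ucp2, an uncoupling protein of the mitochondrial carrier family, had 457.5 CPM in Klrg1Cre and 439.9 CPM in control. The subunits of the mitochondrial pyruvate carrier lay on opposite sides: Mpc1 had 15.15 CPM in Klrg1Cre and 14.04 CPM in control, and Mpc2 had 8.35 and 9.42. Of the partner and chaperone proteins, 9 of 12 were listed and 0 were under 0.05, against 7.09% of all genes. So few genes cannot be told from that share.

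Genes of amino acid sensing and of the integrated stress response, the pathway through which ATF4 is known to raise many amino acid carriers, were also counted. All 24 were listed, 19 had the higher mean in Klrg1Cre (79.2%, against 50.6% of all genes), and the median log2 ratio was 0.20, against 0.01. None (0 of 24) passed the adjusted threshold in the authors' deposited table, and 3 were under an unadjusted p of 0.05 (12.5%, against 7.09%), all with the higher mean in Klrg1Cre. Eif4ebp1, a repressor of translation, had 20.8 and 19.7 CPM in the larger and smaller Klrg1Cre libraries, against 15.8 and 13.7 CPM in the control libraries, without overlap (p = 0.0209 in the authors' deposited table). Chac1, an enzyme that breaks down glutathione, had 37 and 28 reads in the Klrg1Cre libraries, against 27 and 11 reads in the control libraries, or 1.42 and 1.92 CPM against 0.809 and 0.344 CPM. The stress-response factor Ddit3 had deposited means of 19.85 CPM for Klrg1Cre and 13.97 CPM for control (p = 0.0191 in the authors' deposited table).

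Other genes of the list differed less, or less evenly. Atf4 itself had deposited means of 26.8 CPM for Klrg1Cre and 26.2 CPM for control, though the factor is known to be controlled mainly by translation. Trib3, an ATF4 target, had 21.7 and 11.8 CPM in the larger and smaller Klrg1Cre libraries, against 10.1 and 12.0 CPM in the control libraries. Here 1 Klrg1Cre library was high and the other lay among the controls. The letters TGATGNAA were in the promoters of 3 of the 22 list genes with a promoter, namely Asns, Chac1 and Trib3. Over all genes with a promoter it was 1219 of 27025 (4.51%). The list was picked for known genes of this response, and its share was not tested.

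RNA of other cells was present and differed between libraries. All 25 macrophage and monocyte markers were listed, 14 with the higher and 11 with the lower mean in Klrg1Cre, and their median log2 ratio was 0.04. Their deposited means summed to 2494 CPM in Klrg1Cre and 3196 CPM in control. The one with the highest CPM, Chil3, had 1124 CPM in Klrg1Cre and 1932 CPM in control (p = 0.0165 in the authors' deposited table), and without it the other 24 summed to 1370 CPM in Klrg1Cre and 1264 CPM in control. The 13 markers that could be split summed to 616 and 359 CPM in the larger and smaller Klrg1Cre libraries, against 388 and 439 CPM in the larger and smaller control libraries. The larger Klrg1Cre library was thus the highest and the smaller one the lowest. Most of each sum was Ctsd, with 538 and 308 CPM in the larger and smaller Klrg1Cre libraries, against 332 and 370 CPM in the larger and smaller control libraries. Among the defining markers, Lyz2 had 395.9 CPM in Klrg1Cre and 364.0 CPM in control, while Adgre1 had 1.88 and 2.60 and Mrc1 1.98 and 2.72. Marco was listed at 0 in control and had 14 and 1 reads in the larger and smaller Klrg1Cre libraries. Of 5 solute carriers known from macrophages that could be split and had at least 1 CPM, 4 were likewise higher in the larger Klrg1Cre library than in the smaller, by a median of 1.503 times, against 1.75 times for 11 such markers and 1.09 times for all 65 split solute carrier genes. Slc11a1, a metal transporter of phagosomes, had 19.8 and 9.75 CPM in the larger and smaller Klrg1Cre libraries, against 13.2 and 15.8 CPM in the control libraries. Slc29a3, a nucleoside carrier of lysosomes, had 32.7 and 19.0 CPM in the Klrg1Cre libraries, against 22.1 and 22.3 CPM in the control libraries. In both genes the control libraries lay between the Klrg1Cre libraries.

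**Figure D5:**
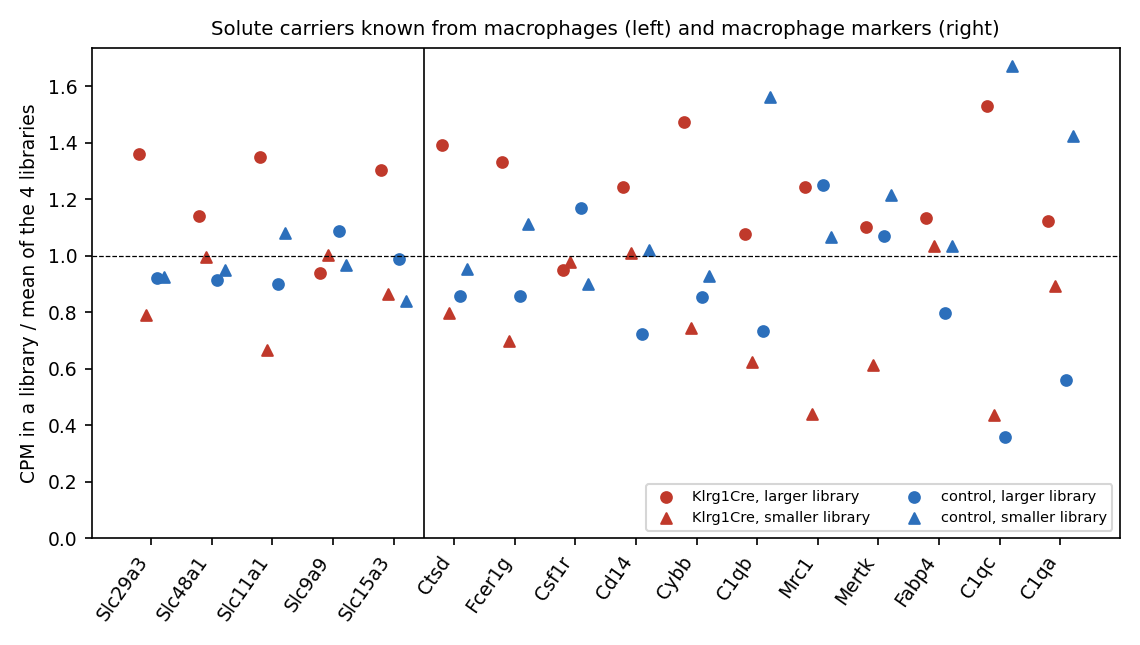
CPM in each library divided by the mean of the 4 libraries, for 5 solute carriers known from macrophages (left of the line) and 11 macrophage markers (right), all with a mean of at least 1 CPM; red is Klrg1Cre, blue control, circles the larger and triangles the smaller library of a group. The red circles lie above the red triangles in 4 of 5 carriers and in 10 of 11 markers.

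In all, 10 of the 11 listed macrophage-known carriers were in the table, and 9 of the 10 had the higher deposited mean in Klrg1Cre, with a median log2 ratio of 0.22. The 1 under 0.05 was Slc37a2. Their part in the results on sugar carriers and on the whole set was not tested. Leaving them out could take only Slc37a2 from the members under an unadjusted p of 0.05. It left 13 higher and 9 lower members, which does not measure their part. Markers of other cell types were also present. The 4 of 8 B cell markers that were listed summed to 1.72 CPM in Klrg1Cre and 3.18 CPM in control, with Ms4a1 listed at 0 in Klrg1Cre, and the 9 of 17 epithelial and endothelial markers summed to 35.1 CPM in Klrg1Cre and 30.4 CPM in control. Of 13 eosinophil and granulocyte markers, 5 were listed, with sums of 14.5 CPM for Klrg1Cre and 12.9 CPM for control. The 18 ILC2 markers, many of which Th2 cells are also known to express, summed to 1073 CPM in Klrg1Cre and 1178 CPM in control, and 12 of them were under an unadjusted p of 0.05 (66.7%, against 7.09% of all genes), 6 with the higher mean in Klrg1Cre and 6 with the lower. The part of these cells in the results on solute carriers was not tested.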

How the data were processed

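The data are 1 table of the authors' comparison of 2 Klrg1Cre with 2 control samples. Reads were aligned with STAR and handled in Partek against build mm9, per the submitters' processing notes; versions are not given in the sources used here. Per the file headers it holds total counts, a signal per gene that equalled 2 times the sum of both means in all 11883 rows, and group means. The deposited means are in CPM as judged from their values, with an offset of 0.0001 CPM, so that value is a gene listed at 0. The deposited ratio equalled Klrg1Cre mean over control mean, and the deposited score is the same ratio as a signed fold change. The deposited p-values come from an unnamed model, and the adjusted ones equalled a Benjamini-Hochberg adjustment over all 11883 genes.

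Means were split into whole reads of 2 libraries to within 1e-09 reads, up to 20000 CPM, which succeeded for 5821 genes (49.0%) in Klrg1Cre and 5582 (47.0%) in control. Since most genes were not recovered in both groups, no count test was fitted. For the 4242 split genes that averaged 1 CPM or more, log2(CPM + 1) was tested by limma 3.58.1 (R 4.3.3, trended variance); the Spearman correlation of its p-values with the authors' was 0.998 across genes, which are not independent. Both steps were tested on simulated data. Other work used Python 3.11.15. A mean carries no SD, and counting floors cover counting error only.

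The members and all lists were chosen with earlier results of these data known. Genes named were members with an adjusted p under 0.05, the 20 smallest p-values, every member with an unadjusted p under 0.05, the highest mean in each class, the 10 largest log2 ratios at a mean of at least 1 CPM, and members that pair with Slc3a2 or Bsg; others that are named were picked after their values were seen. One member that this rule names is not reported here. Alternatives were a minimum of 1 or 5 CPM, pseudocounts, scaling without Rn45s, each library left out, and members left out. Transcript lengths (GENCODE M21) and promoters (RefSeq GRCm38.p6) were matched by symbol only, since their build differs from mm9.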

Additional observations from a re-analysis of the deposited data

How the results depend on the processing

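No result on a count of members passing the adjusted threshold changed in the authors' values. With a mean of at least 5 CPM, 15 members were under an unadjusted p of 0.05 (23 without the filter), 9 of them higher in Klrg1Cre (14 without it). The members with both Klrg1Cre libraries above both control libraries numbered 16, against 25, with a mean of at least 1 CPM. The median log2 ratio of the members, 0.07, was 0.036 with a pseudocount of 5 CPM, 0.048 when scaled without Rn45s and 0.050 over the members that could be split; with 1 library left out it ran between -0.032 and 0.094. That of the amino acid and peptide carriers, 0.23, was 0.15 with a pseudocount of 1 CPM and 0.050 with 5 CPM, and ran between 0.063 and 0.47 with 1 library left out. In limma, leaving out 1 library gave 0 to 1 members called and 2 to 9 members under an unadjusted p of 0.05 (8 with all 4). The lone library of a group is then assumed to vary like the others. The causes of these shifts were not tested. Of 16 named members that could be split, 13 kept the sign of their difference under these settings; Slc1a5, Slc25a5 and Slc52a2 did not. No paired analysis was possible because the deposited columns carry no replicate numbers. Depth limits what can be said of genes under about 1 CPM, and 2 libraries a group limit all tests.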
